A study of Mus musculus with 9 samples.

Results

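The enzymes that write and remove DNA methylation in mouse embryonic stem (ES) cells, with the pocket protein gene Rbl2, were followed in cells that make no miRNAs of the usual kind. The genes were chosen by name: Dnmt1, Uhrf1, Dnmt3a, Dnmt3b, Dnmt3l, Tet1, Tet2, Tet3 and Rbl2. Each row of the table whose gene symbol in the platform annotation is 1 of these 9 was taken, which gave 12 transcript clusters (the groups of probes that the array summarizes into a level) among the 22999 counted, because Tet1 has 3 clusters and Tet3 has 2. No cluster holding 1 of the genes carried a second symbol. Affymetrix mouse gene ST arrays were used for total RNA of Dgcr8 KO, Dicer KO and wild-type (WT) ES cells, 3 for each genotype and 9 in all. The Dgcr8 KO cells lack Dgcr8, which with Drosha forms the Microprocessor, and the Dicer KO cells lack Dicer, which cuts the hairpins that the Microprocessor releases. The WT cells are of the v6.5 line, and no drug or other treatment is given in the labels. The labels name no age, clone or passage, and every mutant array comes from ES cells whose derivation was described elsewhere, so that a genotype and a cell line cannot be told apart. The paper calls the arrays biological replicates, while the labels describe cells plated in triplicate, so that p-values measure only the spread between these samples, which may be technical.

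DNA methylation in mammals is laid down on cytosines of CpG pairs. Dnmt3a and Dnmt3b place it on unmethylated DNA, with Dnmt3l as a catalytically inactive partner that stimulates them, and Dnmt1 copies it to the new strand after replication, guided by Uhrf1. The Tet enzymes oxidise methylcytosine, which leads to its loss. Rbl2, also called p130, is a relative of the retinoblastoma protein that binds E2F4 and represses transcription, and in mouse ES cells it has been described as a target of the miR-290 cluster and as a repressor of the Dnmt3 genes. The arrays measured RNA levels. Methylation, protein and mature miRNAs were not measured on them.

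The miRNAs behind that description are shown here because both mutants lack the processing step that makes them. The RefSeq (GRCm38.p6) records used here gave 17 mature miRNAs in the cluster on chromosome 7. The 5 below are those among them whose seed (bases 2 to 8, in capitals) begins with AAGUGC. The first 3 share the seed AAGUGCU, and the remaining ones differ in its last base. For the gene Mir292 the records held only mmu-miR-292a-5p, while each other gene had both arms, so the 5 may not be all of this kind.
mmu-miR-291a-3p: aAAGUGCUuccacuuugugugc
mmu-miR-294-3p: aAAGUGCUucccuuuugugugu
mmu-miR-295-3p: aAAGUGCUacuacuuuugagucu
mmu-miR-290a-3p: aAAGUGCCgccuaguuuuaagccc
mmu-miR-291b-3p: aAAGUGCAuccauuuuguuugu
No transcript cluster of the array was annotated to the genes Mir290 to Mir295, so the primary transcript was not followed.

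Promoters are shown for genes that moved together and for those that did not, with words that E2F factors are known to bind. In windows from 250 bases before to 50 bases after the start, RefSeq (GRCm38.p6) gave 16 windows of 300 bases for the 9 genes. TTTCCCGC, TTTCGCGC, TTTGCCGC and TTTGGCGC were searched on both strands, and no word is the reverse complement of another. At least 1 of the 4 words was found in 744 of 32851 windows of this length (2.26%). The only windows of the 9 genes with a word were 1 of Dnmt1 and 1 of Uhrf1, and the windows of Dnmt3a (3), Dnmt3b (1), Dnmt3l (3), Tet1, Tet2, Tet3 and Rbl2 held none. The windows with a word lie at chr9:20952574-20952873 on the minus strand, where the words start at -219 (on the strand opposite to the gene) and 34 relative to the start, and at chr17:56304063-56304362 on the plus strand, where the word starts at -185. The windows of Dnmt3b, at chr2:153649199-153649498 on the plus strand, and of the most downstream start of Dnmt3a, at chr12:3891494-3891793 on the plus strand, are given for comparison. Capitals mark the words.
Dnmt1: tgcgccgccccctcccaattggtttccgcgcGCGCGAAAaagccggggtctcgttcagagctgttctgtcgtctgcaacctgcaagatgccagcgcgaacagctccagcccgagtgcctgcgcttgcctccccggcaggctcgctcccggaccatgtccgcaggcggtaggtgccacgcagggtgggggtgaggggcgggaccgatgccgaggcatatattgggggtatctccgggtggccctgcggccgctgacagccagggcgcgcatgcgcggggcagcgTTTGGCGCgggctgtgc
Uhrf1: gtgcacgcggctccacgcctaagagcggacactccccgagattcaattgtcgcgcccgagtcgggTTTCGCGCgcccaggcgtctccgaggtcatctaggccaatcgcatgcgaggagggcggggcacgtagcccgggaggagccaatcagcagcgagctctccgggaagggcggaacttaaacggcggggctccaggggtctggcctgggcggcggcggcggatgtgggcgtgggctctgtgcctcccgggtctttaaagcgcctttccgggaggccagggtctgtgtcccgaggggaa
Dnmt3b: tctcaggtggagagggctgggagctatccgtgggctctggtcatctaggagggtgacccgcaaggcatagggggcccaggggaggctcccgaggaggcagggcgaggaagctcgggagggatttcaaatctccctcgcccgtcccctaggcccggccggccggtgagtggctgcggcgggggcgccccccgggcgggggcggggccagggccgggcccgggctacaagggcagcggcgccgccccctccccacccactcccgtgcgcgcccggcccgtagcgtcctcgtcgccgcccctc
Dnmt3a: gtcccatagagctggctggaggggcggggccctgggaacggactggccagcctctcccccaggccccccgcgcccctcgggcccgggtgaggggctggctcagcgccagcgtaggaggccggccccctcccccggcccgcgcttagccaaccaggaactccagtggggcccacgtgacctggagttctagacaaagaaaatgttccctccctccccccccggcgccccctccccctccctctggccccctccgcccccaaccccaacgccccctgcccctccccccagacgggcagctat
These 4 windows hold 33 (Dnmt1), 33 (Uhrf1), 30 (Dnmt3b) and 18 (Dnmt3a) CpG pairs. The windows at other starts hold 2 and 12 (Dnmt1), 12 (Uhrf1) and 46 and 47 (Dnmt3a), so the number depends on the start chosen. A word in a window is a description and not a site at which a factor was measured, and the absence of these letters says nothing of the factor.

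Each targeted gene was lower on the arrays labelled as its knockout. The log2 levels of Dgcr8 were 8.74, 8.96 and 8.86 on Dgcr8 KO arrays, against 9.76, 9.81 and 9.82 on WT arrays, and those of Dicer1 were 8.33, 8.43 and 8.32 on Dicer KO arrays, against 10.18, 10.18 and 10.23 on WT arrays. Where the probes of these clusters lie relative to the deletions was not examined. The medians of the arrays lay between 6.49 and 6.56. Relative to WT, Dgcr8 KO had 7 of 11 ES cell markers higher and 1 lower, beside 15.7% of all clusters called higher and 17.3% lower, and Dicer KO had 7 higher and 2 lower, beside 17.8% and 19.1%. Their levels averaged 11.42 to 11.46 on Dgcr8 KO arrays, 11.47 to 11.49 on Dicer KO arrays and 11.17 to 11.23 on WT arrays. Along the leading component of the replicate spread, which held 40.8% of it, the ends were WT replicate 1 and Dgcr8 KO replicate 2, and for the 12 clusters values without both are given where they change a call.

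Across the 12 clusters, the 3 genes for de novo methylation fell in both mutants and Rbl2 rose in both, whereas the maintenance pair Dnmt1 and Uhrf1 stayed within 0.18 of WT on the log2 scale. In Dgcr8 KO relative to WT, 6 clusters were called higher and 3 lower (limma, Benjamini-Hochberg adjusted p under 0.05), beside 33.0% of all clusters called, 15.7% higher and 17.3% lower. In Dicer KO relative to WT, 3 were called higher and 3 lower, beside 36.8% of all clusters called, 17.8% higher and 19.1% lower. So large a background means that a call alone sets no gene apart, and the sizes of the changes are given with each gene. The 3 arrays of the mutant did not overlap the 3 WT arrays for 10 clusters in Dgcr8 KO and 9 in Dicer KO, beside 40.9% and 48.0% of all clusters. Over all clusters, the median log2 ratio to WT was -0.0103 (Dgcr8 KO) and -0.0572 (Dicer KO). With SAM, the test of the study's methods, at a false discovery rate of 5%, 5 of the 12 clusters were called in Dgcr8 KO, beside 22.3% of all. When a fold of at least 1.5 was required of the same limma fit, 4 were called in Dgcr8 KO (Dnmt3a, Dnmt3b, Dnmt3l and Rbl2), beside 4.17% of all.

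**Figure D1:**
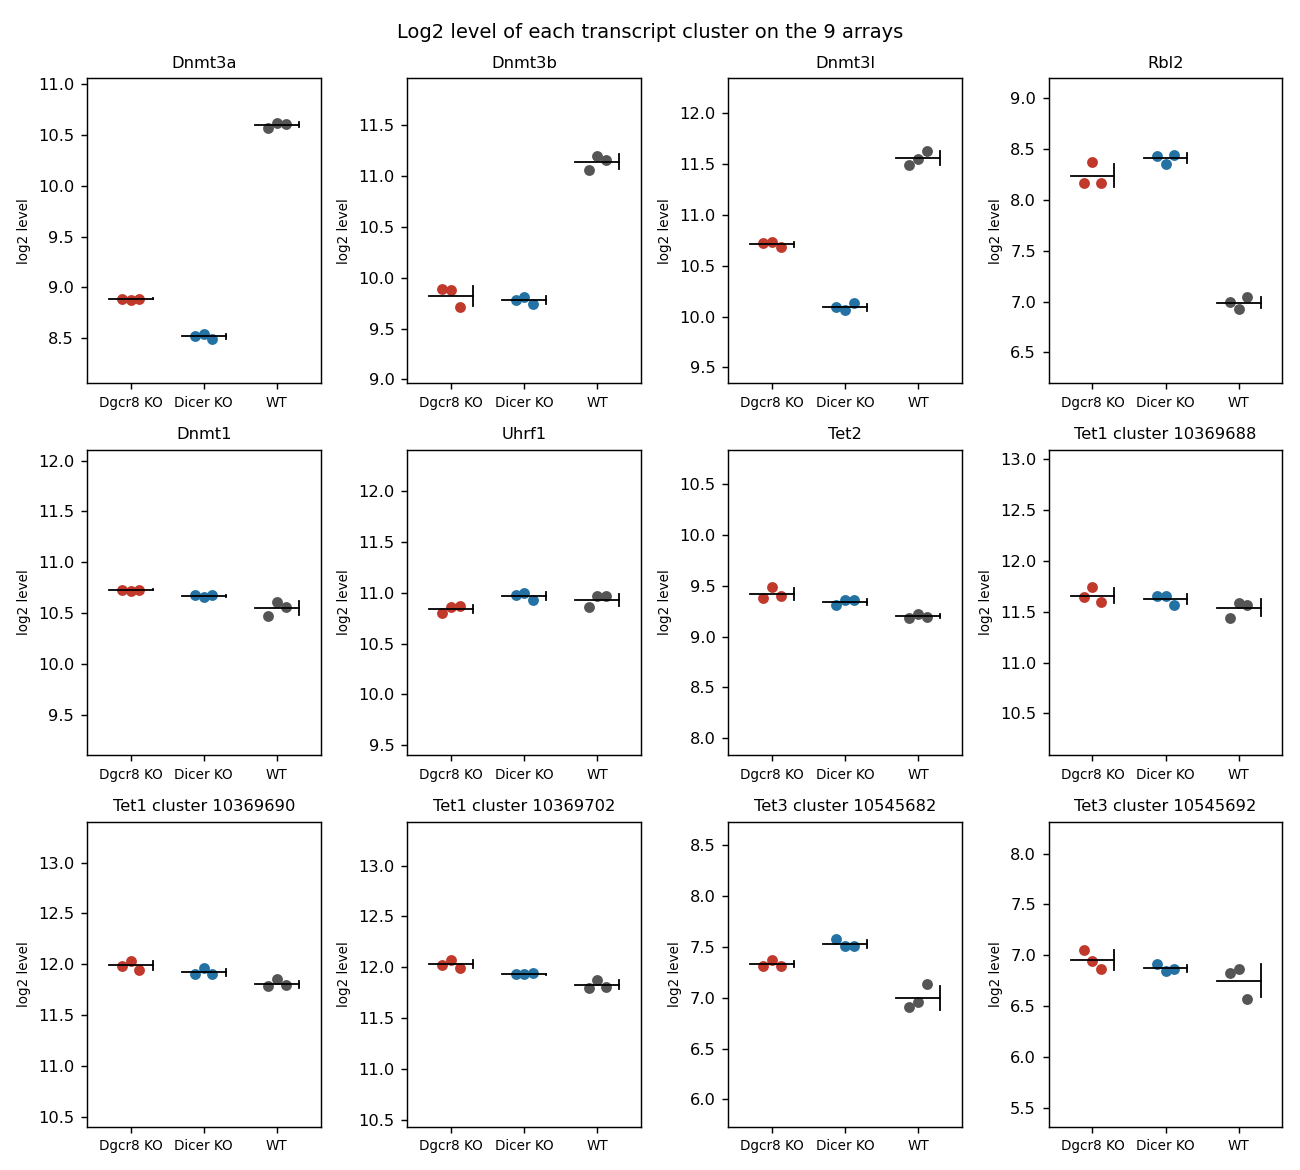
Log2 level (vertical axis, each panel spanning the same number of units) of each of the 12 transcript clusters in Dgcr8 KO, Dicer KO and WT cells. Points are arrays, horizontal lines are means and vertical lines are the SD (n = 3). Dnmt3a, Dnmt3b and Dnmt3l sit lower on all 6 mutant arrays than on the WT arrays, and Rbl2 sits higher.

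Dnmt3a, which methylates DNA de novo, had the lowest log2 ratio of the 9 genes in both mutants. Its log2 levels were 8.89, 8.88 and 8.89 on Dgcr8 KO arrays, 8.52, 8.54 and 8.49 on Dicer KO arrays, and 10.57, 10.62 and 10.61 on WT arrays. Every mutant array lay more than 1.5 below every WT array, and the Dicer KO arrays lay below the Dgcr8 KO arrays. The mean in Dgcr8 KO was 8.89 ± 0.00518 against 10.60 ± 0.024 in WT (SD, n = 3 each), a log2 ratio of -1.71 (SE 0.0412, 95% confidence interval -1.81 to -1.62, adjusted p = 1.22e-08, limma), which leaves 30.5% of the WT level. Only 27 of the 22999 clusters had a lower ratio in Dgcr8 KO. In Dicer KO the log2 ratio was -2.08 (interval -2.17 to -1.99, adjusted p = 3.68e-09, limma), which leaves 23.6% of the WT level, and 17 clusters had a lower ratio. Dnmt3aos, an antisense gene at the Dnmt3a locus that was picked after its values were seen, was called in no contrast, with ratios to WT of 0.03 (Dgcr8 KO) and -0.24 (Dicer KO).

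Dnmt3b, the other de novo methyltransferase, fell by nearly the same amount in both mutants. Its log2 levels were 9.89, 9.88 and 9.71 on Dgcr8 KO arrays, 9.78, 9.81 and 9.74 on Dicer KO arrays, and 11.06, 11.20 and 11.16 on WT arrays. The arrays of the mutants overlapped each other, and none reached the WT arrays. The log2 ratio was -1.32 (SE 0.0634, adjusted p = 5.52e-07, limma) in Dgcr8 KO and -1.36 (SE 0.0634, adjusted p = 2.73e-07) in Dicer KO, or 40.1% (Dgcr8 KO) and 39% (Dicer KO) of the WT level. In the ranking of all clusters, 59 stood lower in Dgcr8 KO, as did 105 in Dicer KO.

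Dnmt3l, the inactive cofactor of both enzymes, fell less in Dgcr8 KO than in Dicer KO. Its RNA stood at log2 levels of 10.72, 10.73 and 10.68 on Dgcr8 KO arrays, 10.09, 10.06 and 10.13 on Dicer KO arrays, and 11.49, 11.55 and 11.63 on WT arrays. The genotypes did not overlap, with Dgcr8 KO between Dicer KO and WT. The log2 ratio to WT was -0.85 (SE 0.0504, adjusted p = 1.73e-06, limma) in Dgcr8 KO, or 55.4% of the WT level, and -1.47 (SE 0.0504, adjusted p = 4.86e-08) in Dicer KO, or 36.2%. In Dgcr8 KO 299 clusters had a lower ratio, and in Dicer KO 84 did.

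The falls of the 3 genes were set against each other within arrays. With each gene set relative to its WT mean, Dnmt3a stood below Dnmt3b on all Dgcr8 KO arrays, at -0.46 to -0.28, and further below it on all Dicer KO arrays, at -0.73 to -0.71, while the WT arrays ranged between -0.04 and 0.05. Dnmt3b stood below Dnmt3l on all Dgcr8 KO arrays (-0.55 to -0.42) and above it on all Dicer KO arrays (0.03 to 0.17), where the WT arrays lay between -0.05 and 0.07. These differences are between changes within an array and do not compare the levels of different genes. They were not tested.

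Rbl2 moved the other way. Its log2 levels were 8.17, 8.37 and 8.17 on Dgcr8 KO arrays, 8.43, 8.35 and 8.44 on Dicer KO arrays, and 7.00, 6.93 and 7.04 on WT arrays. The lowest mutant array lay more than 1 above the highest WT array, and the mutants overlapped each other. The log2 ratio was 1.25 (SE 0.0655, interval 1.10 to 1.39, adjusted p = 8.96e-07, limma) in Dgcr8 KO, a 2.37-fold rise, and 1.42 (SE 0.0655, interval 1.27 to 1.57, adjusted p = 2.61e-07) in Dicer KO, a 2.67-fold rise. In either mutant 292 of the 22999 clusters had a higher ratio. Both mutants share the WT arrays, so the 2 ratios are not independent measurements.

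**Figure D2:**
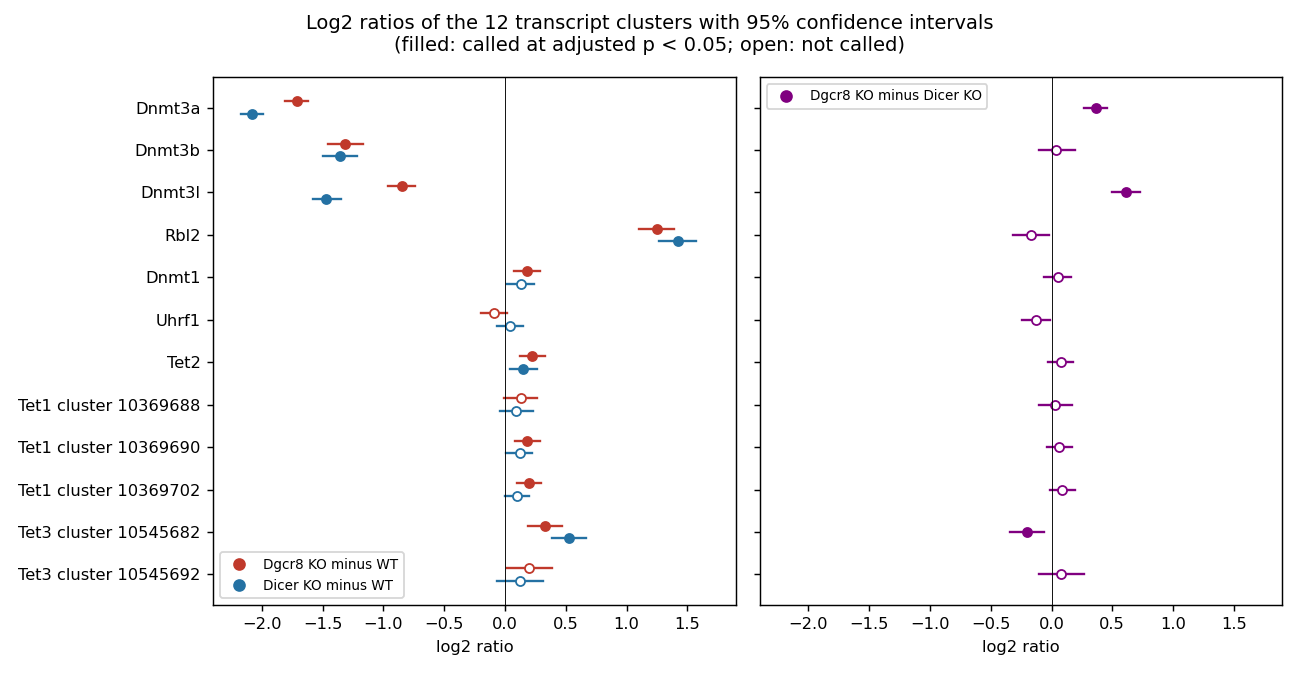
Log2 ratios (horizontal axis) of the 12 transcript clusters, with bars for the 95% confidence interval from limma over 9 arrays. The left panel gives Dgcr8 KO and Dicer KO relative to WT, and the right panel gives Dgcr8 KO relative to Dicer KO. In the left panel Dnmt3a, Dnmt3b and Dnmt3l lie between -2.08 and -0.85 and Rbl2 at 1.25 and 1.42, while the other clusters lie between -0.09 and 0.53.

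Among the maintenance genes, Dnmt1, which copies methylation after replication, had log2 levels of 10.73, 10.72 and 10.73 on Dgcr8 KO arrays, 10.68, 10.66 and 10.68 on Dicer KO arrays, and 10.47, 10.61 and 10.56 on WT arrays. All mutant arrays lay above the WT arrays by small amounts. Dnmt1 rose in Dgcr8 KO by a log2 ratio of 0.18 (SE 0.0472, adjusted p = 0.0152, limma), a call that SAM did not make. In Dicer KO the ratio of 0.13 was not called (interval 0.02 to 0.24, adjusted p = 0.06), and without WT replicate 2 it was 0.16 and was called (adjusted p = 0.0393). It was also called without the dimmest 25% of clusters (adjusted p = 0.0389), with median centring (0.0365), with cyclic loess (0.0164) and with trend and robust fitting (0.0145), at ratios of 0.13 to 0.17. Uhrf1, which brings Dnmt1 to hemimethylated DNA, was measured at 10.80, 10.86 and 10.87 on Dgcr8 KO arrays, 10.98, 11.00 and 10.93 on Dicer KO arrays, and 10.86, 10.97 and 10.97 on WT arrays. The arrays of both mutants overlapped the WT arrays. Its log2 ratio was -0.09 in Dgcr8 KO (interval -0.20 to 0.02, adjusted p = 0.228) and 0.04 in Dicer KO (interval -0.07 to 0.15, adjusted p = 0.586), so that a change of the size seen for the Dnmt3 genes lay outside the intervals.

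The Tet genes, which encode the oxidases of methylcytosine, had log2 ratios to WT above 0 in all 6 of their clusters and both mutants. Of these 12 ratios 6 were called, all of them higher, beside 15.7% (Dgcr8 KO) and 17.8% (Dicer KO) of all clusters called higher. Called in either direction were 33.0% (Dgcr8 KO) and 36.8% (Dicer KO) of all clusters. The ratios come from Tet1, Tet2 and Tet3 alone and share the WT arrays, so they are not independent. Tet3 cluster 10545682 had the largest ratios of the Tet clusters. Its log2 levels were 7.31, 7.37 and 7.31 on Dgcr8 KO arrays, 7.58, 7.51 and 7.51 on Dicer KO arrays, and 6.91, 6.96 and 7.14 on WT arrays, with no overlap between genotypes. It rose by 0.33 in Dgcr8 KO (SE 0.0629, adjusted p = 0.00263, limma) and by 0.53 in Dicer KO (SE 0.0629, adjusted p = 0.000118), or 1.26-fold in Dgcr8 KO and 1.45-fold in Dicer KO. The second Tet3 cluster, 10545692, was measured at 7.05, 6.94 and 6.86 on Dgcr8 KO arrays, 6.91, 6.84 and 6.86 on Dicer KO arrays, and 6.82, 6.86 and 6.57 on WT arrays. It overlapped WT in both mutants and was not called, with ratios of 0.20 in Dgcr8 KO (adjusted p = 0.0943) and 0.12 in Dicer KO (adjusted p = 0.292). The clusters of Tet3 thus gave different calls, and which transcripts each one covers was not examined.

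Tet2 had log2 levels of 9.38, 9.49 and 9.40 on Dgcr8 KO arrays, 9.31, 9.36 and 9.36 on Dicer KO arrays, and 9.18, 9.22 and 9.19 on WT arrays. All mutant arrays lay above all WT arrays. It rose by 0.22 in Dgcr8 KO (SE 0.0475, adjusted p = 0.00484, limma), which SAM did not call. The rise of 0.15 in Dicer KO (SE 0.0475, adjusted p = 0.0355) was lost when any single WT or Dicer KO array was left out. The adjusted p was 0.0662, 0.0568 and 0.0781 without WT replicates 1, 2 and 3, and 0.0557, 0.105 and 0.0986 without Dicer KO replicates 1, 2 and 3. The call was also lost with SAM, over all rows (adjusted p = 0.0534) and with quantile normalization (0.07, adjusted p = 0.228). It was kept with median centring (0.19, adjusted p = 0.0206) and with cyclic loess (0.16, adjusted p = 0.0156).

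Tet1, the Tet gene best known from ES cells, was read by 3 clusters. Cluster 10369702 was measured at 12.02, 12.07 and 11.99 on Dgcr8 KO arrays, 11.93, 11.93 and 11.94 on Dicer KO arrays, and 11.80, 11.87 and 11.81 on WT arrays. For cluster 10369690 the log2 levels were 11.98, 12.03 and 11.94 on Dgcr8 KO arrays, 11.90, 11.96 and 11.90 on Dicer KO arrays, and 11.78, 11.85 and 11.79 on WT arrays. In cluster 10369688 they were 11.65, 11.74 and 11.60 on Dgcr8 KO arrays, 11.66, 11.66 and 11.57 on Dicer KO arrays, and 11.44, 11.59 and 11.57 on WT arrays. The first pair kept the mutants above WT with no overlap, and the last had 1 Dicer KO array within the WT range. In Dgcr8 KO, Tet1 cluster 10369702 rose by 0.20 (adjusted p = 0.0068, limma) and cluster 10369690 by 0.18 (adjusted p = 0.0141), while cluster 10369688 had a ratio of 0.13 and was not called (adjusted p = 0.148). SAM called none of them, and the call of cluster 10369690 was lost without WT replicate 1 and Dgcr8 KO replicate 2 together (0.15, adjusted p = 0.0567). In Dicer KO the Tet1 ratios were 0.10 for cluster 10369702, 0.12 for 10369690 and 0.09 for 10369688, and none was called (adjusted p = 0.101, 0.0817 and 0.257). Clusters 10369702 and 10369690 were called in Dicer KO with quantile normalization (adjusted p = 0.0219 and 0.0162), with cyclic loess (0.0247 and 0.0191) and with trend and robust fitting (0.0118 and 0.0107), and cluster 10369690 also with median centring (0.0444). Cluster 10369688 was called in Dgcr8 KO, at 0.20, with quantile normalization and with cyclic loess (adjusted p = 0.00753 and 0.00778).

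**Figure D3:**
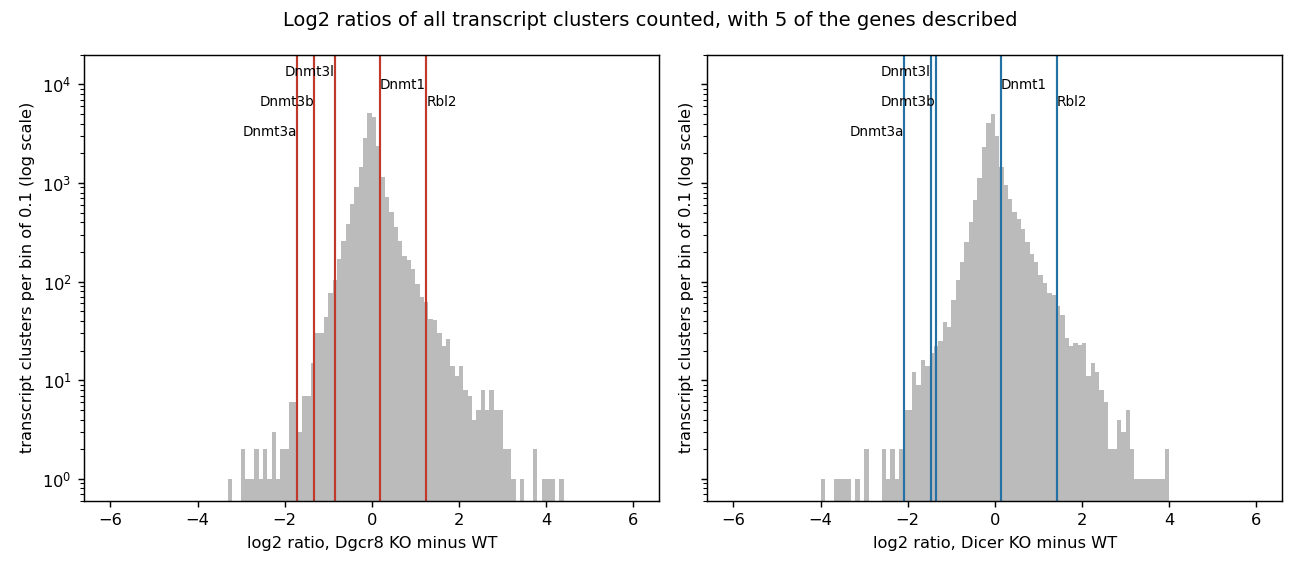
Number of transcript clusters per bin of 0.1 (vertical axis, log scale) by log2 ratio to WT (horizontal axis), for Dgcr8 KO on the left and Dicer KO on the right, over the 22999 clusters counted. Vertical lines mark 5 of the genes described. Dnmt3a lies in the lower tail, with 27 clusters below it in the left panel and 17 in the right, and Dnmt1 lies in the body of the distribution.

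The mutants were next compared with each other. Of the 12 clusters, Dgcr8 KO had 2 called higher and 1 lower relative to Dicer KO, beside 24.6% of all clusters called, 11.2% higher and 13.4% lower. The arrays did not overlap for 7 clusters, beside 42.0% of all, and 0 were called when a fold of at least 1.5 was required, beside 1.62% of all. Dnmt3l was higher in Dgcr8 KO by 0.61 (SE 0.0504, interval 0.50 to 0.73, adjusted p = 3.03e-05, limma), or 1.53-fold, and Dnmt3a was higher by 0.37 (SE 0.0412, interval 0.27 to 0.46, adjusted p = 0.000197), or 1.29-fold. Tet3 cluster 10545682 was lower in Dgcr8 KO at -0.20 (adjusted p = 0.0452), and the call was lost without WT replicate 2 (adjusted p = 0.0579), without Dgcr8 KO replicate 1, 2 or 3 (0.121, 0.0606 and 0.119) and without Dicer KO replicate 1, 2 or 3 (0.143, 0.095 and 0.0833). For Dnmt3b the difference was 0.04, with an interval of -0.10 to 0.19 that bounds any difference between the mutants well under the fall from WT. For Rbl2 it was -0.17 (interval -0.32 to -0.02, adjusted p = 0.0929), and without Dgcr8 KO replicate 2, the highest Dgcr8 KO array for this gene, it was -0.24 and was called (adjusted p = 0.0176), as it was without this array and WT replicate 1 together (-0.24, adjusted p = 0.0149), with median centring (-0.22, adjusted p = 0.0454) and with array weights (-0.20, adjusted p = 0.0259). The remaining clusters, of Dnmt1, Uhrf1, Tet1 and Tet2 and the second of Tet3, had differences between -0.13 and 0.09 and were not called. Other settings called some of them, namely Uhrf1 with median centring (-0.18, adjusted p = 0.0484), with trend and robust fitting and with array weights (-0.13, adjusted p = 0.0272 and 0.0396), Tet1 cluster 10369702 with quantile normalization and cyclic loess (0.14, adjusted p = 0.0264 and 0.0244) and with trend and robust fitting (0.09, adjusted p = 0.0282), and Dnmt1 and Tet2 with quantile normalization (0.13 and 0.15, adjusted p = 0.0418 and 0.0265).

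The genes around these enzymes were read from a list of 27 other factors of DNA methylation and demethylation, of which 23 were measured. Relative to WT, Dgcr8 KO had 6 higher and 5 lower (median log2 ratio 0.03), beside 15.7% and 17.3% of all clusters. Dicer KO had 8 higher and 8 lower (median 0.11), beside 17.8% and 19.1%. The list thus moved in both directions. Idh2, a mitochondrial isocitrate dehydrogenase that makes the alpha-ketoglutarate used by Tet enzymes, was measured at 10.86, 10.88 and 10.88 on Dgcr8 KO arrays, 10.63, 10.60 and 10.60 on Dicer KO arrays, and 9.36, 9.42 and 9.49 on WT arrays, and it rose by 1.45 in Dgcr8 KO cells and 1.19 in Dicer KO cells (adjusted p = 5.87e-08 and 1.03e-07, limma). Prdm14, a regulator that represses Dnmt3 genes in naive mouse ES cells, was measured at 8.85, 8.88 and 8.85 on Dgcr8 KO arrays, 9.18, 9.21 and 9.17 on Dicer KO arrays, and 7.19, 7.24 and 7.36 on WT arrays, the highest 3 arrays being those of Dicer KO. The mutants differed by -0.33 for Prdm14 (adjusted p = 0.00174). Zfp57, a zinc finger protein that keeps methylation at imprinted regions, was measured at 11.61, 11.71 and 11.70 on Dgcr8 KO arrays, 10.53, 10.56 and 10.53 on Dicer KO arrays, and 11.60, 11.67 and 11.62 on WT arrays. It fell in Dicer KO, with a log2 ratio of -1.09 (adjusted p = 1.62e-07), while the ratio in Dgcr8 KO was 0.05 (adjusted p = 0.536), and the mutants differed by 1.14 (adjusted p = 5.73e-07). Gadd45b, a stress-induced gene linked to demethylation, rose by 0.37 in Dgcr8 KO and by 1.26 in Dicer KO (adjusted p = 0.00147 and 4.31e-07). Dppa3, which protects maternal methylation in the zygote, was picked after its values were seen, and its log2 ratios were -1.50 (Dgcr8 KO) and -2.11 (Dicer KO), both called (adjusted p = 4.31e-05 and 3.77e-06).

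Rbl2 works with E2F factors, other pocket proteins and the MuvB complex, and all 18 genes of such a list were measured. In Dgcr8 KO 8 were higher and 5 lower than in WT (median log2 ratio 0.09), beside 15.7% and 17.3% of all clusters. In Dicer KO 5 were higher and 6 lower (median 0.03), beside 17.8% and 19.1%. Both other pocket protein genes rose, as Rbl2 did. Rbl1, or p107, was measured at 9.15, 9.23 and 9.14 on Dgcr8 KO arrays, 9.42, 9.47 and 9.44 on Dicer KO arrays, and 7.99, 8.31 and 8.23 on WT arrays, and rose by 1.00 in Dgcr8 KO cells and 1.26 in Dicer KO cells (adjusted p = 9.46e-06 and 1.52e-06, limma). Rb1, the retinoblastoma gene, was measured at 8.40, 8.38 and 8.25 on Dgcr8 KO arrays, 8.18, 8.06 and 8.00 on Dicer KO arrays, and 7.33, 7.44 and 7.38 on WT arrays, and rose by 0.96 in Dgcr8 KO cells and 0.70 in Dicer KO cells (adjusted p = 3.44e-06 and 2.17e-05). The rise was not common to the other genes of the list. E2f4, whose protein Rbl2 binds, was picked after its values were seen. Its log2 ratios were -0.46 (Dgcr8 KO) and -0.48 (Dicer KO), with adjusted p of 7.63e-05 and 4.48e-05 (limma). E2f8, an atypical repressor E2F, had log2 ratios of -1.07 (Dgcr8 KO) and -0.79 (Dicer KO), with adjusted p of 6.8e-07 and 2.96e-06, and Tfdp1, the dimerization partner of E2F proteins, of -0.62 (Dgcr8 KO) and -0.71 (Dicer KO), with adjusted p of 9.38e-06 and 3.12e-06.

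Other reported targets of the miR-290 family were read beside Rbl2. Of 9 named, 8 were measured, and each mutant had 6 higher and 0 lower relative to WT, with median log2 ratios of 1.01 (Dgcr8 KO) and 0.89 (Dicer KO), beside -0.0103 and -0.0572 over all clusters. Lats2, a kinase of the Hippo pathway, was measured at 8.84, 8.86 and 8.64 on Dgcr8 KO arrays, 8.68, 8.67 and 8.66 on Dicer KO arrays, and 6.25, 6.81 and 6.43 on WT arrays, and rose by 2.28 in Dgcr8 KO cells and 2.17 in Dicer KO cells (adjusted p = 1.15e-06 and 1.03e-06, limma). Ddhd1, a phospholipase, rose by 1.48 in Dgcr8 KO cells and 1.37 in Dicer KO cells (adjusted p = 2.02e-07 and 1.94e-07). Mbd2, a reader of methylated CpG pairs, was measured at 9.70, 9.78 and 9.76 on Dgcr8 KO arrays, 9.92, 9.95 and 9.83 on Dicer KO arrays, and 8.60, 8.69 and 8.67 on WT arrays. Casp2, a caspase, was measured at 9.18, 9.24 and 9.18 on Dgcr8 KO arrays, 9.29, 9.23 and 9.25 on Dicer KO arrays, and 8.29, 8.22 and 8.29 on WT arrays. None of Lats2, Ddhd1, Mbd2 and Casp2 was called between the mutants. In that contrast the list had 1 gene higher and 1 lower in Dgcr8 KO, beside 11.2% and 13.4% of all clusters.

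Germline genes whose promoters are methylated in somatic cells gave a list of 15 that moved in both directions. In Dgcr8 KO 4 were higher and 6 lower than in WT (median log2 ratio -0.12), beside 15.7% and 17.3% of all clusters. In Dicer KO 6 were higher and 2 lower (median 0.18), beside 17.8% and 19.1%. Hormad1, a protein of the meiotic chromosome axis, was measured at 9.20, 9.29 and 9.10 on Dgcr8 KO arrays, 9.22, 9.26 and 9.09 on Dicer KO arrays, and 7.46, 7.59 and 7.88 on WT arrays, and rose by 1.56 in Dgcr8 KO cells and 1.55 in Dicer KO cells (adjusted p = 3.31e-06 and 2.54e-06, limma). Tex11, an X-linked meiotic gene, was measured at 8.41, 8.48 and 8.32 on Dgcr8 KO arrays, 9.20, 9.24 and 9.20 on Dicer KO arrays, and 6.40, 7.07 and 7.05 on WT arrays, so that WT replicate 1 stood apart from its group. Syce1, of the synaptonemal complex, rose by 0.36 in Dgcr8 KO cells and 0.67 in Dicer KO cells (adjusted p = 6e-04 and 9.44e-06). Taf7l, a germ cell form of a general transcription factor subunit, was lower in Dgcr8 KO, at -0.43, but higher in Dicer KO, at 0.82 (adjusted p = 0.0207 and 0.000496), and the mutants differed by -1.25 (adjusted p = 8.12e-05). Between the mutants 0 of the 15 were higher and 4 lower in Dgcr8 KO, beside 11.2% of all clusters called higher and 13.4% lower. The share of all clusters called in either direction was 24.6%. The median log2 ratio of the list was -0.24 in this contrast, against 0.0349 over all clusters.

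**Figure D4:**
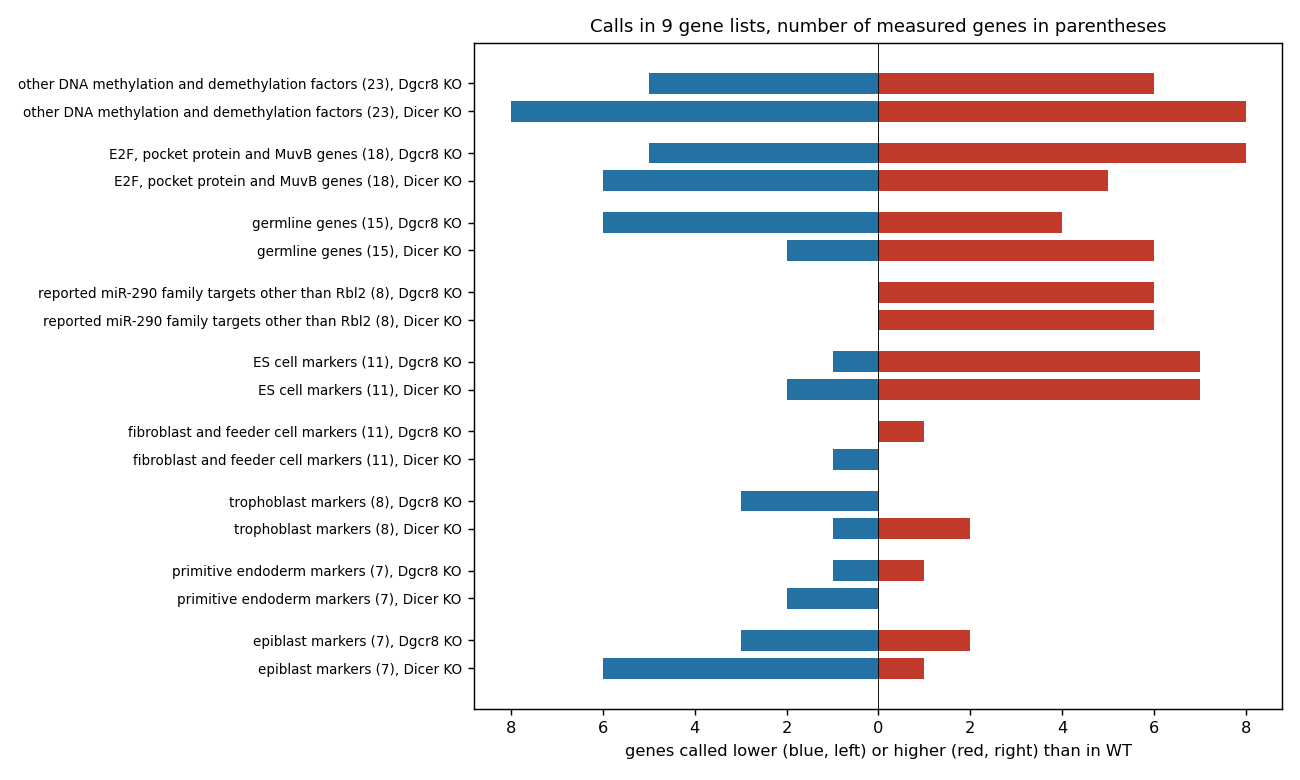
Number of genes called higher (right, red) or lower (left, blue) than in WT in each of 9 lists, for Dgcr8 KO and Dicer KO, with the number of measured genes in parentheses. The reported miR-290 targets have 6 calls to the right and 0 to the left in both mutants, and the other DNA methylation factors have calls on both sides. Of all clusters, 15.7% (Dgcr8 KO) and 17.8% (Dicer KO) were called higher, and 17.3% and 19.1% lower.

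Dnmt3a and Dnmt3b are known to be higher in primed than in naive pluripotent cells, and markers of other cell types and states were read on the same arrays. Of 7 measured epiblast markers, Dgcr8 KO had 2 higher and 3 lower relative to WT, beside 15.7% and 17.3% of all clusters. Dicer KO had 1 higher and 6 lower, beside 17.8% and 19.1%. Between the mutants Dgcr8 KO had 5 of these markers higher and 0 lower, beside 11.2% and 13.4%. Their median log2 ratio to WT was -0.23 (Dgcr8 KO) and -0.58 (Dicer KO), and their levels averaged 7.58 to 7.65 on Dgcr8 KO arrays, 6.88 to 7.00 on Dicer KO arrays and 7.57 to 7.63 on WT arrays. Lef1, a factor of Wnt signalling, had ratios of -1.12 (Dgcr8 KO) and -1.91 (Dicer KO), with adjusted p of 0.000459 and 1.16e-05 (limma), and Pou3f1, or Oct6, of -0.60 (Dgcr8 KO) and -0.92 (Dicer KO), with adjusted p of 0.00136 and 8.23e-05. Zic2, a zinc finger factor, rose by 1.03 in Dgcr8 KO cells and 0.34 in Dicer KO cells (adjusted p = 4.51e-06 and 0.0043), and Otx2 was higher in Dgcr8 KO, at 1.23, but lower in Dicer KO, at -0.58. Among the ES cell markers, Nanog rose by 0.77 (Dgcr8 KO) and 1.10 (Dicer KO), Klf4 by 0.19 (Dgcr8 KO) and 0.60 (Dicer KO), Dppa5a by 0.30 (Dgcr8 KO) and 0.58 (Dicer KO) and Esrrb by 0.55 (Dgcr8 KO) and 0.16 (Dicer KO). The markers called lower, named after their values were seen, were Utf1 at -0.45 (Dgcr8 KO) and -0.51 (Dicer KO), with adjusted p of 8.24e-05 and 3.17e-05, and Sall4 at -0.26 in Dicer KO (adjusted p = 0.00087). The part of cell state in the levels of the Dnmt3 genes was not tested.

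Markers of other cells were counted as well, and their calls are to be read against the share of all clusters called. Relative to WT, that share was 15.7% upward and 17.3% downward for the Dgcr8 mutant. For the Dicer mutant it was 17.8% upward and 19.1% downward. The 11 fibroblast and feeder markers averaged 5.61 to 5.81 on Dgcr8 KO arrays, 5.61 to 5.71 on Dicer KO arrays and 5.65 to 5.85 on WT arrays. These averages lay below the array medians, but single markers lay on both sides. Their means ranged from 3.32 to 7.41 (Dgcr8 KO), 3.40 to 7.05 (Dicer KO) and 3.27 to 7.28 (WT). Of the 11 markers, Dgcr8 KO had 1 higher than WT (Twist1, 0.40) and 0 lower, and Dicer KO had 0 higher and 1 lower (Dcn, -0.26). The 8 trophoblast markers averaged 6.67 to 6.79 on Dgcr8 KO arrays, 6.94 to 7.03 on Dicer KO arrays and 6.92 to 6.96 on WT arrays. Of these, 0 were higher and 3 lower in Dgcr8 KO, with Krt7 at -0.92, Ascl2 at -0.41 and Cdx2, which was picked after its values were seen, at -0.24, and 2 were higher (Elf5, 0.41, and Gata3, 0.44) and 1 lower (Ascl2, -0.47) in Dicer KO. The 7 primitive endoderm markers averaged 6.03 to 6.17 on Dgcr8 KO arrays, 5.98 to 6.04 on Dicer KO arrays and 6.26 to 6.39 on WT arrays. Of these, 1 was higher (Gata4, 0.35) and 1 lower (Dab2, -1.13) in Dgcr8 KO, and 0 were higher and 2 lower (Dab2, -1.15, and Sox7, -0.31) in Dicer KO. The part of these cells in the levels of the 9 genes was not tested.

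Finally, the genes with levels most like each of the 9 were named by Pearson's r over the 9 arrays, as a description, since the points share their genotypes. Dnmt3a was followed most closely by Fblim1 (r = 0.999), which had log2 ratios to WT of -1.29 (Dgcr8 KO) and -1.62 (Dicer KO), and by Srm (r = 0.998), at -0.78 (Dgcr8 KO) and -1.01 (Dicer KO). Dnmt3b was followed by Car4 (r = 0.999), at -3.30 (Dgcr8 KO) and -3.31 (Dicer KO), and Dcakd (r = 0.996), at -0.55 (Dgcr8 KO) and -0.61 (Dicer KO). Dnmt3l was followed by Myl9 (r = 0.999), at -0.97 (Dgcr8 KO) and -1.71 (Dicer KO), and Jade1 (r = 0.999), at -0.42 (Dgcr8 KO) and -0.75 (Dicer KO). For Rbl2 they were Rnf213 (r = 0.997), at 1.48 (Dgcr8 KO) and 1.73 (Dicer KO), and Casp2 (r = 0.997), at 0.94 (Dgcr8 KO) and 0.99 (Dicer KO). The most like genes were Dennd5b (r = 0.99) and Sf3b1 (r = 0.981) for Dnmt1, Rps6 (r = 0.976) and Socs4 (r = 0.972) for Uhrf1, and Myo1d (r = 0.979) and Wee1 (r = 0.977) for Tet2. For Tet3 cluster 10545682 they were Creld2 (r = 0.994) and Rtn4 (r = 0.991), and for cluster 10545692 Bcorl1 (r = 0.973) and Olfr514 (r = 0.962). Tet1 cluster 10369702 was followed by Klhl42 (r = 0.992) and Pcnt (r = 0.99), and cluster 10369690 by Dock4 (r = 0.983) and Hectd4 (r = 0.982). Tet1 cluster 10369688 was followed by Cplane1 (r = 0.966) and Pdia4 (r = 0.961).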

How the data were processed

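RNA levels of 9 arrays were analysed, 3 each of Dgcr8 KO, Dicer KO and WT ES cells, grouped by their labels. The authors deposited normalized log2 values, for which the paper names RMA and the submitters' processing notes name GCRMA. Versions and the genome build were not found there. No further normalization was applied. Because raw signals were not used here, signal over background is unknown, and 3 arrays per genotype limit the precision.

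The platform annotation gave the gene symbols. Of 35557 rows, 12147 have no symbol, and these were not counted. Also not counted were 326 clusters of miRNA genes alone, 7 mitochondrial clusters and 78 on chromosome Y, so that 22999 remained. With R 4.3.3 and limma 3.58.1, a mean for each genotype was fitted over the 9 arrays together (6 residual degrees of freedom), and 3 contrasts were tested with eBayes and Benjamini-Hochberg adjustment over the 22999 clusters. A cluster was called at an adjusted p under 0.05. The scripts were tested on simulated data.

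Named were all clusters of the 9 genes, in each of 9 lists the 4 called genes with the smallest adjusted p, and for each of the 9 genes the 2 with the highest Pearson's r. The genes and lists were chosen with earlier results of these data known. The lists are described by counts and medians without a set test. The alternatives were SAM (written anew, 20 permutations per pair), other sets of arrays or transcripts, other normalizations, a trended robust variance, array weights, a fold of at least 1.5, an adjusted p under 0.01, a replicate block and each array left out in turn. A fit without both WT replicate 1 and Dgcr8 KO replicate 2 was added after the data were seen. Sequences are from RefSeq (GRCm38.p6).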

Additional observations from a re-analysis of the deposited data

Results flagged for a closer look

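For 3 of the clusters the effects of the mutants differed by the direct contrast of Dgcr8 KO with Dicer KO (limma). For Dnmt3l the log2 ratios to WT were -0.85 (Dgcr8 KO) and -1.47 (Dicer KO), a difference of 0.61 (adjusted p = 3.03e-05), and all 3 Dgcr8 KO arrays lay above all 3 Dicer KO arrays. For Dnmt3a they were -1.71 (Dgcr8 KO) and -2.08 (Dicer KO), a difference of 0.37 (adjusted p = 0.000197), again without overlap of the arrays. For Tet3 cluster 10545682 they were 0.33 (Dgcr8 KO) and 0.53 (Dicer KO), a difference of -0.20 (adjusted p = 0.0452) that was lost when most single arrays were left out, as given with the comparison of the mutants. None of the 3 differences was called when a fold of at least 1.5 was required.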

How the results depend on the processing

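Dnmt3a, Dnmt3b, Dnmt3l and Rbl2 kept their calls and directions relative to WT in all 22 alternatives run. The log2 ratios ranged from -1.73 to -1.66 (Dgcr8 KO) and from -2.11 to -2.03 (Dicer KO) for Dnmt3a, from -1.39 to -1.25 (Dgcr8 KO) and from -1.40 to -1.31 (Dicer KO) for Dnmt3b, from -0.89 to -0.78 (Dgcr8 KO) and from -1.50 to -1.42 (Dicer KO) for Dnmt3l, and from 1.18 to 1.28 (Dgcr8 KO) and from 1.38 to 1.46 (Dicer KO) for Rbl2. The number of clusters called of 12 was less steady. In Dgcr8 KO relative to WT it was 9, against 10 with quantile normalization and with cyclic loess, and 7 at an adjusted p under 0.01. It was 5 with SAM and 4 with a fold of at least 1.5, which left only Dnmt3a, Dnmt3b, Dnmt3l and Rbl2. Of all 22999 clusters, 3615 were called higher and 3975 lower in this contrast. The counts were 3909 and 4132 with quantile normalization, 4351 and 3663 with cyclic loess, and 2789 and 2829 at an adjusted p under 0.01. They were 2639 and 2485 with SAM, and 691 and 267 with a fold of at least 1.5. In Dicer KO relative to WT the number called of the 12 was 6, against 9 with cyclic loess and with trend and robust fitting, and 8 with median centring. It was 7 with quantile normalization and without the dimmest 25%. It was 5 with SAM, over all rows and at an adjusted p under 0.01, and 4 with a fold of at least 1.5. Of all clusters, 4087 were called higher and 4387 lower. The counts were 4736 and 3797 with cyclic loess, 4265 and 4590 with trend and robust fitting, and 4476 and 3324 with median centring. They were 4088 and 4711 with quantile normalization, and 4169 and 4456 of 17249 without the dimmest 25%. They were 3618 and 3654 with SAM, 4471 and 4685 over all 35557 rows, and 877 and 318 with the fold required. In the direct contrast the number called of the 12 was 3, against 6 with quantile normalization and 5 with median centring and with array weights. It was 4 with cyclic loess and with trend and robust fitting. It was 2 over all rows and at an adjusted p under 0.01, and 0 with a fold of at least 1.5. Of all clusters, 2574 were called higher and 3083 lower in this contrast. The counts were 3025 and 2919 with quantile normalization, 1787 and 3761 with median centring, and 3566 and 3913 with array weights. They were 2708 and 3200 with cyclic loess, 2763 and 3530 with trend and robust fitting, and 180 and 192 with the fold required. With single arrays left out the number called of the 12 stayed at 9 for Dgcr8 KO, was 5 to 6 for Dicer KO and was 2 to 3 for the direct contrast. Directions turned only in the direct contrast, in values near 0: with median centring Dnmt1 was at -0.0023, Dnmt3b at -0.011 and Tet1 cluster 10369688 at -0.021, and the last ranged from -0.0038 (without Dgcr8 KO replicate 2) to 0.06 with single arrays left out and was at -0.0038 without WT replicate 1 and Dgcr8 KO replicate 2 together. Among the lists, the feeder markers called in Dicer KO relative to WT were 1, against 0 over all rows, 0 without the dimmest 25% and 2 with quantile normalization, and in the direct contrast 2, against 1 without the dimmest 25%. The E2F list had 6 calls in the direct contrast, against 3 with median centring. Replicate numbers did not pair the arrays (r of the deviations from -0.2 to 0.344, and 4 of 9 arrays correlated best with their own number), and with the replicate block the clusters called were 9, 6 and 2, the loss being Tet3 cluster 10545682 (adjusted p = 0.07). The cause of these shifts was not tested.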
